A study of Mus musculus with 12 samples.

Results

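Class IIa histone deacetylases and Mef2 transcription factors were followed through 4 perturbations of mouse neural progenitor cells (NPCs). The genes are Hdac4, Hdac5, Hdac7 and Hdac9 on the deacetylase side and Mef2a, Mef2c and Mef2d on the Mef2 side, measured by 11 array probes. They are 7 of the 21154 genes that a probe on the array names. The family was chosen because Hdac9 was among the largest decreases on the arrays with Mkl1, so the values of Mkl1 against EGFP are given below as a description without a test. The same holds for Hdac9 on the arrays labelled Srf, which share the EGFP arrays with that choice.

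Class IIa histone deacetylases carry an amino-terminal region that binds Mef2 factors and holds corepressors on Mef2-bound genes. Calcium-dependent and other kinases phosphorylate them, 14-3-3 proteins then retain them in the cytoplasm, and Mef2 is freed to activate its targets. In neurons and muscle this switch couples activity to transcription, and the Hdac9 gene is itself known as a Mef2 target.

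The methods name an NPC line differentiated in culture from embryonic stem cells and another from induced pluripotent stem cells. The sample titles do not say which was used. NPCs were kept on gelatin with epidermal growth factor and basic fibroblast growth factor. In an overexpression experiment they received a retrovirus with EGFP (the control), with Mkl1, an actin-regulated cofactor of serum response factor, or with Srf itself. In a knockdown experiment the retrovirus carried a short hairpin RNA. The hairpin used as control was directed at EGFP (shEGFP), and 2 others, shActb_1 and shActb_2, were directed at Actb, which encodes β-actin. All 6 groups thus share the NPC background and a retroviral infection. No clones are named among the infected cells, and the labels do not say whether they also carried the reprogramming cassette that the study uses elsewhere. The question here was how far each perturbation altered the transcripts of the deacetylases, of the Mef2 factors and of the genes that work with them.

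Each group has 2 one-colour Agilent arrays, and 33006 to 40354 of 55681 probes per array were well above background. The 2 arrays of a group correlated at r = 0.993 to 0.998. The study calls its Actb knockdown duplicates technical and does not say what the EGFP, Mkl1 and Srf duplicates are. The knockdown tests thus measure array-to-array error and not the spread between cultures. The overexpression tests share the fit over all 12 arrays and cannot be read as that spread either. The probe of Actb fell by 0.53 with shActb_1 (adjusted p = 0.00128, limma) and by 0.65 with shActb_2 (adjusted p = 0.000196, limma) on the log2 scale. Both probes of Srf read lower on the arrays labelled Srf, by -2.46 and -1.40. The same probes rose in the other comparisons, by 0.71 and 1.18 with Mkl1, 0.90 and 0.60 with shActb_1, and 0.97 and 0.75 with shActb_2. The introduced Srf is an open reading frame and the position of these probes is not known here, so they may not read it, and every direction given for these arrays rests on their label. Arc and Actc1, both known as Srf targets, were higher on these arrays than with EGFP, with values given below. Both were higher still with Mkl1, and Actc1 was well above background on neither EGFP array, so they are no check of the label. The probes of Mkl1 (listed as Mrtfa) differed by 0.17 and 0.20 on the Mkl1 arrays, neither past the test. Of 10 NPC markers, 8 were well above background on every array, among them the filament genes Nes and Vim and the transcription factor gene Sox2, whereas Olig2 was so on 1 of 12. EGFP, Mkl1 and Srf shared a slide and shEGFP and shActb_1 shared another. On the first of these slides the EGFP arrays lay in row 2 and the Mkl1 and Srf arrays in row 1. Row and perturbation cannot be told apart in those comparisons. The shActb_2 arrays lay alone on slide 3, where slide and hairpin cannot be told apart.

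The following 3 promoter sequences are shown first, because Hdac9 and Hdac5 are the deacetylases that fell with both Actb hairpins and their start sites are where a site for Srf or for Mef2 would be looked for. They are RefSeq sequences of build GRCm38.p6, 250 bases before and 50 after an annotated start, given 5′ to 3′ on the gene's own strand, with capitals marking a match to the Mef2 site. The Hdac9 entries lie at chr12:34528840-34529139 and chr12:34917046-34917345 and the Hdac5 entry at chr11:102230123-102230422, all on the minus strand.
Hdac9, start 1: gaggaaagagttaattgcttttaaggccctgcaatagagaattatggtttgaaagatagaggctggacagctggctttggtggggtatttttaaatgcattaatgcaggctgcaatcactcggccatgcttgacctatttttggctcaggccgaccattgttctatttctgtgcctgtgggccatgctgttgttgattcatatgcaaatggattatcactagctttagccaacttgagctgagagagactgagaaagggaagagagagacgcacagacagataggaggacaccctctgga
Hdac9, start 2: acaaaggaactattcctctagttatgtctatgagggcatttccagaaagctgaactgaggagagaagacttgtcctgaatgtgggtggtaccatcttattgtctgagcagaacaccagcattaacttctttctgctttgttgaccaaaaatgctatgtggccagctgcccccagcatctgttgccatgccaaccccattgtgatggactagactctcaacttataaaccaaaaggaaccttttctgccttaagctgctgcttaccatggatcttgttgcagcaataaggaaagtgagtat
Hdac5: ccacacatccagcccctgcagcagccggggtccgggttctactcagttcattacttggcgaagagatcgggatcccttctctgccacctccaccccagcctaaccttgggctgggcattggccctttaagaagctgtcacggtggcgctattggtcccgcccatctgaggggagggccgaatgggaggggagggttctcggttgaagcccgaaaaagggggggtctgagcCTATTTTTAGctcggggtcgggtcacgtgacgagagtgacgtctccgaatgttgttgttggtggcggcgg
Neither Hdac9 start holds a match to the Mef2 site, and the Hdac5 start holds 1, with its first base at position -20. Among the 13 entries of the 7 genes, Mef2a alone also held such a match, at -2. A Mef2 site stands in 3.19% of the 32851 promoters of the table. None of the 13 entries held a full CArG box, the Srf site, which 1.63% of all promoters hold. The patterns were CCWWWWWWGG for the CArG box and YTAWWWWTAR for the Mef2 site, with W for A or T, Y for C or T and R for A or G. A stretch that departs from them at any base was not counted, so weaker sites may lie in these windows. Both motifs were searched on both strands. These letters describe windows of 300 bases and say nothing of sites elsewhere.

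Levels are given as log2 signals relative to the 75th percentile of the same array. Hdac9, a class IIa deacetylase best known from muscle and brain, read -1.28 and -1.65 on the EGFP arrays and -4.44 and -3.90 on the Mkl1 arrays. The arrays labelled Srf read -2.34 and -2.25, between these groups and without overlap with either. In the knockdown experiment it read -1.77 and -1.59 with shEGFP, -3.66 and -3.76 with shActb_1, and -3.21 and -3.02 with shActb_2. Every array of both hairpins was lower than both shEGFP arrays. In bulk RNA, fewer cells that express a gene and less of its RNA per cell cannot be told apart.

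Hdac9 fell by 2.03 on the log2 scale with shActb_1 (SE 0.19, adjusted p = 0.00109, limma), a 4.08-fold decrease. With shActb_2 it fell by 1.43 (SE 0.19, adjusted p = 0.00124, limma), a 2.70-fold decrease. The decrease with shActb_2 was smaller by 0.60 (95% interval 0.15 to 1.04, adjusted p = 0.0475, limma), a call that held in 8 of 22 other settings of the analysis and was lost when either array of shEGFP, shActb_1, shActb_2 or Srf was left out. Its size was not stable either, at 0.25 under normexp and 1.53 with both Hdac9 probes averaged. Mkl1 differed from EGFP by -2.71 (SE 0.19), which places Hdac9 at rank 7 from the bottom of 15660 genes, between H2-M10.6 at -2.78 and Col11a1 at -2.64. The arrays labelled Srf differed from EGFP by -0.83 (SE 0.19). Another background correction, normexp, shrank the Mkl1 difference to -1.62 and that of shActb_1 to -1.31, with the latter still past the test.

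In order of group means, Hdac9 stood highest in EGFP at -1.47 ± 0.26 (SD, n = 2) and shEGFP at -1.68 ± 0.13 (SD, n = 2), the controls, whose arrays overlapped. Then followed Srf at -2.29 ± 0.07 (SD, n = 2), shActb_2 at -3.11 ± 0.13 (SD, n = 2), shActb_1 at -3.71 ± 0.07 (SD, n = 2) and Mkl1 at -4.17 ± 0.38 (SD, n = 2). No arrays of these last 4 groups overlapped. The lowest signals called well above background lay between -6.07 and -5.00 across the arrays, so the probe was still measured on all 12.

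A second Hdac9 probe, designed on another transcript of the gene, was well above background on 5 of 12 arrays. It read -5.71 and -1.34 with shActb_2, and on every other array between -6.45 and -3.99. The single high array thus stands apart, and the probe's difference of 2.02 between shActb_2 and shEGFP did not pass the test (SE 1.20, adjusted p = 0.217, limma). When both probes were averaged, the shActb_2 difference of Hdac9 turned to 0.29 through that array.

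**Figure D1:**
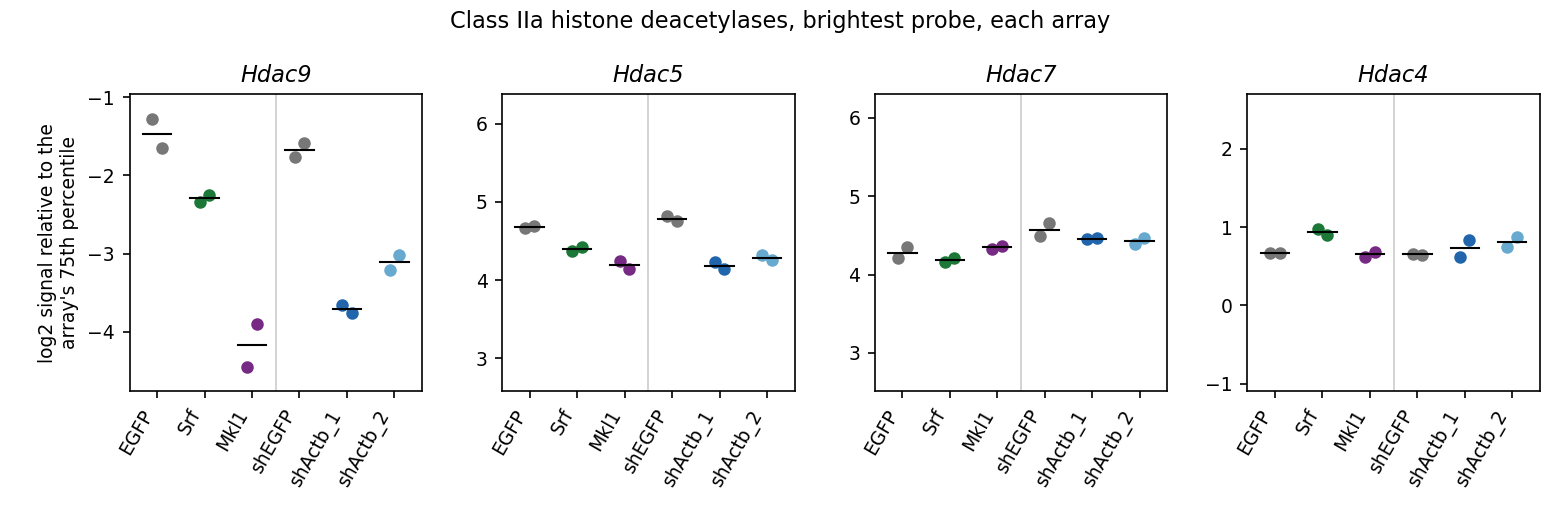
Log2 signal relative to the array's 75th percentile (vertical axis, 3.8 log2 units in every panel) of the brightest probe of each class IIa deacetylase, with the 6 groups along the horizontal axis, 1 point per array and a bar at the group mean. Hdac9 spans -4.44 to -1.28, Hdac5 lies below its own control in all 4 perturbations, and the group means of Hdac7 and Hdac4 differ from their controls by -0.15 to 0.27.

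Hdac5, the deacetylase of this class that calcium signals export in many excitable cells, moved less and in the same direction. It read 4.82 and 4.76 with shEGFP, 4.23 and 4.14 with shActb_1, and 4.32 and 4.26 with shActb_2. The overexpression arrays read 4.66 and 4.69 with EGFP, 4.25 and 4.15 with Mkl1, and 4.37 and 4.43 on the arrays labelled Srf. In both experiments no perturbed array reached its controls.

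Hdac5 fell by 0.60 with shActb_1 (SE 0.06, adjusted p = 0.00181, limma) and by 0.50 with shActb_2 (SE 0.06, adjusted p = 0.00111, limma). Both calls held in all 22 other settings, with adjusted p values up to 0.0217 and 0.0161. The hairpins differed by 0.10 (95% interval -0.05 to 0.25), which did not pass the test. On the arrays labelled Srf, Hdac5 fell by 0.28 (SE 0.06, adjusted p = 0.0171, limma), a call lost when either Srf array was left out (adjusted p = 0.0974 and 0.065). The Mkl1 difference was -0.48 (SE 0.06).

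Hdac4, which restrains Mef2 in growth-plate cartilage and is abundant in brain, read 0.66 and 0.67 with EGFP and 0.98 and 0.90 on the arrays labelled Srf. It rose by 0.27 there (SE 0.08, adjusted p = 0.0475, limma), although this call held in only 9 of 22 settings and was lost without any 1 of the EGFP, Srf, Mkl1, shEGFP or shActb_2 arrays. The Mkl1 arrays read 0.62 and 0.69, a difference of -0.01 with a 95% interval of -0.21 to 0.18. The knockdown arrays read 0.66 and 0.65 with shEGFP, 0.62 and 0.83 with shActb_1, and 0.74 and 0.87 with shActb_2. Neither hairpin passed the test, with intervals of -0.12 to 0.27 and -0.04 to 0.35.

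Hdac7, the class IIa member known from blood vessels and thymocytes, passed no test in the scaling used here. It read 4.22 and 4.35 with EGFP, 4.33 and 4.36 with Mkl1, and 4.16 and 4.21 on the arrays labelled Srf. The knockdown arrays read 4.50 and 4.66 with shEGFP, 4.45 and 4.46 with shActb_1, and 4.39 and 4.46 with shActb_2. The 95% intervals of its differences were -0.27 to 0.07 for Srf, -0.29 to 0.06 for shActb_1 and -0.32 to 0.03 for shActb_2. Under quantile normalization the shActb_2 difference moved from -0.15 to -0.33 and passed (adjusted p = 0.0138, limma).

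Mef2c, a factor that drives neuronal, muscle and vascular differentiation, was the Mef2 gene with the largest difference on the Mkl1 arrays. It read -1.01 and -1.05 with EGFP, -2.10 and -2.01 with Mkl1, and -0.81 and -0.83 on the arrays labelled Srf. The Mkl1 arrays lay 2.03-fold below EGFP, a log2 difference of -1.02 (SE 0.08) that normexp and quantile normalization put at -0.91 and -0.92. The difference of 0.21 on the arrays labelled Srf had the opposite sign and did not pass the test (SE 0.08, adjusted p = 0.0869, limma). Whether Mkl1 and Srf differ from each other was not tested, and both are set against the same EGFP arrays.

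With shEGFP, Mef2c read -2.02 and -1.92. It read -2.29 and -2.34 with shActb_1 and -1.76 and -1.93 with shActb_2, where 1 array overlapped the controls. It fell by 0.34 with shActb_1 (SE 0.08, adjusted p = 0.0322, limma), a call that held in 12 of 22 settings and was lost without any 1 of the shEGFP, shActb_1 or Srf arrays. The 0.12 of shActb_2 did not pass the test, although quantile normalization put it at 0.27 and past the threshold (adjusted p = 0.0404, limma). The hairpins differed by 0.46 (SE 0.08, adjusted p = 0.00409, limma), and this held in all 22 settings. The shEGFP arrays lay below the EGFP arrays by more than either hairpin moved the gene, and the controls come from different slides and vectors.

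Mef2a, the Mef2 factor that most adult tissues express, has 3 probes that did not move alike. Its brightest probe read 3.06 and 3.19 with shEGFP, 3.42 and 3.50 with shActb_1, and 2.42 and 2.53 with shActb_2. It fell by 0.65 with shActb_2 (SE 0.10, adjusted p = 0.00217, limma), and its 0.33 with shActb_1 did not pass the test (SE 0.10, adjusted p = 0.0873, limma), although 2 settings, the replicate block and a variance trend, put it at 0.0451 and 0.0262. The hairpins differed by -0.99 (SE 0.10, adjusted p = 0.000707, limma), with no overlap between arrays, in all 22 settings.

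The dimmest Mef2a probe read -2.57 and -2.14 with shEGFP, -2.03 and -2.03 with shActb_1, and -2.64 and -2.53 with shActb_2. It too was lower with shActb_2 than with shActb_1, by -0.56 (SE 0.16, adjusted p = 0.0321, limma). The probe between them in brightness read 0.41 and 0.68 with shEGFP, 0.61 and 0.71 with shActb_1, and 0.57 and 0.58 with shActb_2. Its difference between hairpins of -0.08 had a 95% interval of -0.35 to 0.18. All 3 probes are listed under the same transcript. With the 3 probes averaged, the shActb_2 difference became -0.29 and missed the test (adjusted p = 0.0554, limma).

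On the overexpression arrays the brightest Mef2a probe read 1.94 and 2.06 with EGFP, 2.05 and 2.31 with Mkl1, and 1.74 and 1.70 on the arrays labelled Srf. The Srf difference of -0.27 did not pass the test (SE 0.10, adjusted p = 0.0841, limma). The 2 settings named above put it past the threshold, with the replicate block at 0.0415. The Mkl1 difference was 0.18, with overlapping arrays.

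Mef2d, a Mef2 factor with roles in neuronal survival, was higher than its control in every perturbation and passed the test in 1 of the 3 comparisons tested. Its brightest probe read 0.38 and 0.49 with EGFP, 0.80 and 0.90 with Mkl1, and 0.73 and 0.67 on the arrays labelled Srf. It rose by 0.27 on the latter (SE 0.07, adjusted p = 0.0242, limma), a call lost without EGFP replicate 1 (adjusted p = 0.0814) or without either Srf array (0.125 and 0.0801). The Mkl1 difference was 0.41 (SE 0.07).

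The knockdown arrays of Mef2d read 0.36 and 0.43 with shEGFP, 0.61 and 0.56 with shActb_1, and 0.54 and 0.55 with shActb_2. The differences of 0.19 and 0.15 did not pass the test, although neither hairpin overlapped the control. With normexp the shActb_2 value was 0.21 and passed (adjusted p = 0.0283, limma). The other Mef2d probe had differences of 0.39, 0.30, 0.22 and 0.05 in the order Srf, Mkl1, shActb_1 and shActb_2, none past the test where one was made. Mef2b, the remaining Mef2 gene, was dim, between -6.51 and -4.57 on all 12 arrays, and could be tested only in the knockdown, where it differed by 0.24 and 0.52 without passing.

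**Figure D2:**
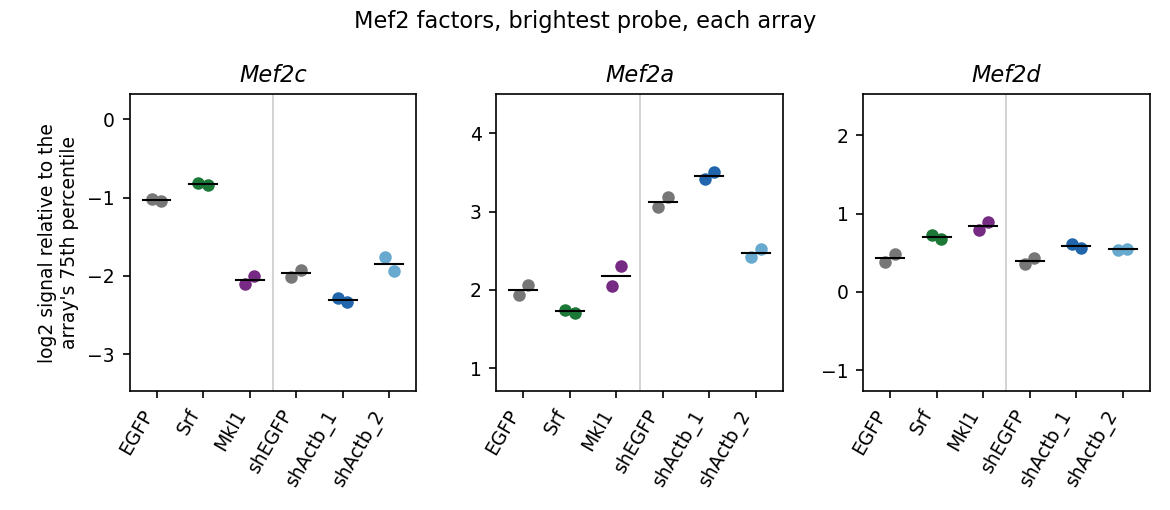
Log2 signal relative to the array's 75th percentile (vertical axis, 3.8 log2 units in every panel) of the brightest probe of each Mef2 gene, with the 6 groups along the horizontal axis, 1 point per array and a bar at the group mean. Mef2c is lowest relative to its control with Mkl1, at -2.10 and -2.01 against -1.01 and -1.05, and the Mef2a points of shActb_1 and shActb_2 lie on opposite sides of shEGFP.

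Counted by the brightest probe of each gene, 3 of the 7 passed the test with shActb_1 (Hdac9, Hdac5 and Mef2c, all lower), where 9.41% of all tested probes passed. Hdac9 also exceeded 2-fold, which 1.61% of probes did. With shActb_2, 3 of 7 passed (Hdac9, Hdac5 and Mef2a, all lower), beside 40.3% of all probes, so that this share is near the background. Again Hdac9 alone exceeded 2-fold, against 6.31%. Between the hairpins 3 of 7 differed (Hdac9 and Mef2c higher with shActb_2, Mef2a lower), beside 32.1% of all probes, and none exceeded 2-fold, against 5.03%. Both hairpins share the shEGFP arrays.

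On the arrays labelled Srf, 3 of the 6 genes tested passed (Hdac4 and Mef2d higher, Hdac5 lower), beside 25.5% of all probes, and none exceeded 2-fold, against 5.54%. These 3 calls are small differences, and the count fell to 0 when either Srf array was left out, when only the overexpression arrays were fitted and when dim probes were kept, and to 1 without EGFP replicate 1. With Mkl1, 20.8% of all probes passed and 2.78% also exceeded 2-fold, shares from which nothing is read for genes picked on this comparison. By value, Hdac9 and Mef2c were over 2-fold lower there. The median of the members' log2 differences was -0.12 with shActb_1, -0.15 with shActb_2 and 0.05 over the 6 tested on the arrays labelled Srf, beside medians over all probes of 0.0072, -0.023 and -0.036.

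**Figure D3:**
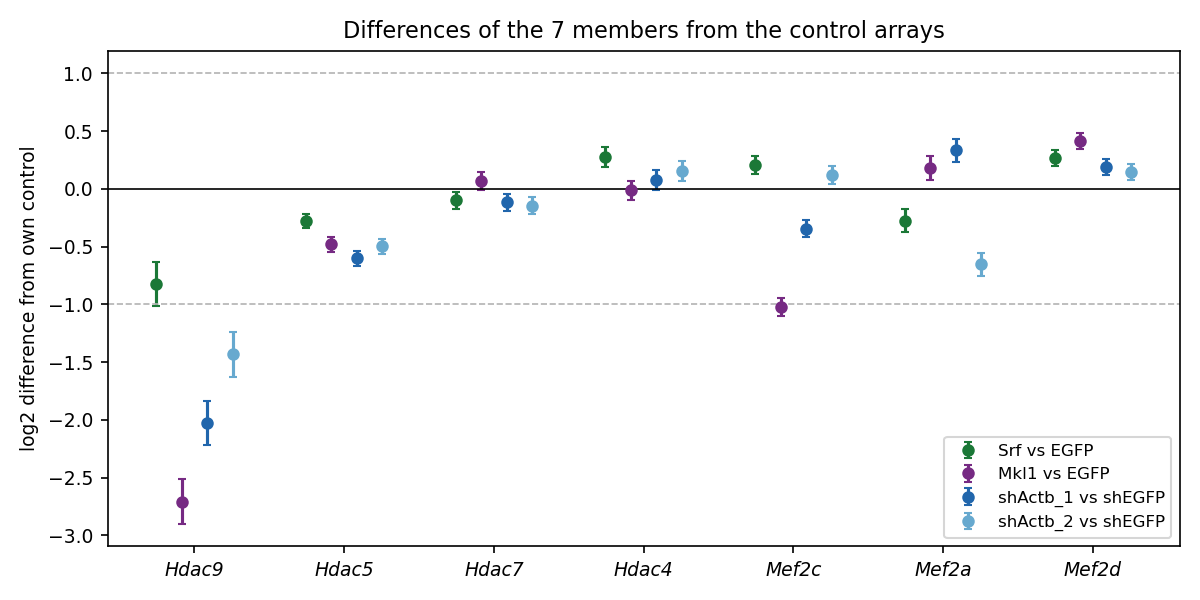
Log2 difference of each gene's brightest probe from its own control (vertical axis), with the 7 genes along the horizontal axis, points for the 4 comparisons, bars of 1 SE from the fit over all 12 arrays, and dashed lines at 2-fold. Hdac9 lies farthest below 0 in all 4, from -0.83 to -2.71, Hdac5 lies between -0.28 and -0.60, and Mef2c passes the 2-fold line with Mkl1 alone.

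The genes that act with these factors are described by list, and those below 2-fold were named after their values were seen. Each count, and each value where no other probe is named, is that of the gene's brightest probe, and other probes of a gene did not always give the same call. Their counts stand beside the share of all probes that passed, which was 25.5% for the arrays labelled Srf, 20.8% for Mkl1, 9.41% for shActb_1 and 40.3% for shActb_2. By the brightest probe, none of the 7 other histone deacetylases rose against a control and none exceeded 2-fold. On the arrays labelled Srf, 3 of 7 fell (25.5% of all probes passed), namely Hdac8 by 0.48, Hdac10 by 0.46 and Hdac6, the tubulin deacetylase, by 0.41. With Mkl1, Hdac11 fell by 0.65 and Hdac8 by 0.40. With shActb_1 only Hdac8 passed, lower by -0.33, and with shActb_2 only Hdac11, lower by -0.80. The brightest probes of the class I genes Hdac1, Hdac2 and Hdac3 passed no test in these 4 comparisons. With shActb_2, however, a dimmer probe each of Hdac1 and Hdac6 rose by 0.28 (adjusted p = 0.0106 and 0.0470, limma). The list medians were -0.23, -0.066, -0.0071 and -0.046 for Srf, Mkl1, shActb_1 and shActb_2.

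Corepressor partners, the proteins through which class IIa deacetylases repress, moved little, and no gene of the 10 exceeded 2-fold. With Mkl1, Ctbp2 rose by 0.27 and Rfxank fell by 0.26. With shActb_1, the brightest probe of Tbl1xr1 fell by 0.39 and the other differed by -0.13 without passing. With shActb_2, the brightest probes of 5 genes were higher and of 1 lower, beside 40.3% of all probes that passed. The 5 include Ncor1 and Tbl1xr1, of which other probes had the opposite sign (-0.12 for Tbl1xr1, not past the test). Cabin1, a Mef2 repressor gene, rose by 0.42 there. The probes of Ncor1, the corepressor that joins these deacetylases to Hdac3, disagreed. Its brightest probe rose by 0.37 with shActb_2, another fell by 0.57 (SE 0.14, adjusted p = 0.0156, limma), and the last differed by -0.18 without passing the test. No direction is given for Ncor1.

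Among the 16 kinases that phosphorylate class IIa deacetylases or activate those that do, 3 rose and 2 fell of 15 tested on the arrays labelled Srf, beside 25.5% of all probes that passed. Prkd2, a protein kinase D, fell by 1.05 (SE 0.09, adjusted p = 0.000203, limma), from 0.79 and 0.57 with EGFP to -0.36 and -0.39. Of Camk2a, a calcium/calmodulin kinase of neurons, the brightest probe rose by 1.41 (SE 0.36, adjusted p = 0.0271, limma), from -3.52 and -4.43 to -2.52 and -2.63. The other Camk2a probe, also well above background on all 12 arrays, differed by 0.10 (SE 0.12, adjusted p = 0.577, limma), with overlapping arrays. Sik1 rose by 0.75 and Prkd1 fell by 0.33. The brightest Camk2b probe rose by 0.64 there and by 0.76 with Mkl1, whereas the other Camk2b probe differed by -0.14 and -0.07 without passing. With Mkl1, Mark2 rose by 0.52 and Camk2d by 0.22, and Prkd1 and Prkd2 fell by 0.55 and 0.44.

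With shActb_1, Camk1d alone of the kinases passed, lower by -0.40. With shActb_2, 4 of 16 rose by 0.25 to 0.50 (Camk1d, Camk2b, Camk2g and Sik3) and 1, Camk4, was lower, beside 40.3% of all probes that passed. Camk4 was well above background with shEGFP, at -5.11 and -5.21, and on neither shActb_2 array, where it read -7.40 and -7.02. It was therefore at least 1.49-fold lower, the bound being the dimmest signal still well above background. It entered the test through shEGFP alone, where it is high, so its call is given no weight.

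The 14-3-3 genes, whose products hold phosphorylated deacetylases in the cytoplasm, had 4 of 7 higher with Mkl1 (20.8% of all probes passed) and 4 of 7 higher with shActb_2 (40.3% of all probes passed), and none lower in either. Ywhah rose by 0.68 with shActb_1 (SE 0.06, adjusted p = 0.000656, limma) and by 0.76 with shActb_2 (SE 0.06, adjusted p = 0.000147, limma). With Mkl1, Ywhag rose by 0.45, Ywhab by 0.40, Ywhaq by 0.31 and Ywhah by 0.23. On the arrays labelled Srf, Ywhaq rose by 0.21 and Ywhah fell by 0.23. The Ywhaq calls with Mkl1 and Srf rest on the brightest of its 5 probes, and none of the other 4 passed there. The list medians were 0.065 for Srf, 0.31 for Mkl1, 0.11 for shActb_1 and 0.26 for shActb_2, beside -0.036, -0.029, 0.0072 and -0.023 over all probes.

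Of the 12 genes that activate Mef2 or serve as its coactivators, 11 were tested and none exceeded 2-fold. On the arrays labelled Srf, 3 were higher and 3 lower, beside 25.5% of all probes that passed. The acetyltransferase gene Kat2b rose by 0.62 there, while Ppp3ca, a catalytic subunit of calcineurin, fell by 0.62, Mapk11 by 0.50 and the acetyltransferase gene Ep300 by 0.27. With Mkl1, 3 were higher and 1 lower (20.8% of all probes passed), Ep300 rising by 0.24 and Ppp3ca falling by 0.48. With shActb_1, Ppp3cc rose by 0.43 and Mapk14, the p38α kinase that phosphorylates Mef2, by 0.33. With shActb_2, 6 rose and 1 fell of the 11, beside 40.3% of all probes that passed, the largest increase being Ppp3cb at 0.50.

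Genes described elsewhere as Mef2 targets moved in both directions. Of 18 such genes, 14 could be tested on the overexpression arrays and 13 in the knockdown, and muscle genes such as Myog were below background. The arrays labelled Srf had 6 of them higher and 3 lower (Mmp10, described below, among the latter), where 25.5% of all probes passed. With Mkl1, 3 rose and 4 fell, where 20.8% of all probes passed. With shActb_1, 2 rose and 3 fell (9.41% of all probes), and with shActb_2, 5 rose and 5 fell (40.3%).

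Arc, an activity-induced gene of synapses, read -2.25 and -1.53 with EGFP, 0.88 and 0.88 with Mkl1, and 0.03 and 0.07 on the arrays labelled Srf. It rose by 2.77 with Mkl1 (SE 0.20, adjusted p = 0.000276, limma) and by 1.94 on the arrays labelled Srf (SE 0.20, adjusted p = 0.000469, limma). With shActb_2 it rose by 1.27 (SE 0.20, adjusted p = 0.00225, limma), and with shActb_1 its arrays read -1.32 and -1.18 against -1.78 and -1.75 without passing the test. Arc is also known as a direct target of Srf.

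Ppargc1a, the coactivator gene of mitochondrial biogenesis, fell in all 4 comparisons. It read -1.36 and -1.80 with EGFP, -3.28 and -3.49 with Mkl1, and -2.67 and -2.65 on the arrays labelled Srf. It read -1.45 and -1.62 with shEGFP, -3.57 and -3.53 with shActb_1, and -2.89 and -3.89 with shActb_2. The decreases were 1.81 on the log2 scale with Mkl1 (SE 0.30, adjusted p = 0.00610, limma), 1.09 on the arrays labelled Srf, 2.02 with shActb_1 (SE 0.30, adjusted p = 0.00648, limma) and 1.85 with shActb_2 (SE 0.30, adjusted p = 0.00253, limma).

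Mmp10, a matrix metalloproteinase gene that class IIa deacetylases restrain in vessels, was measured on 11 of 12 arrays. On the arrays labelled Srf it read -5.29 and -4.35 against -3.12 and -3.37, a difference of -1.58. As 1 of these arrays was not well above background, it entered that test through EGFP alone, where it is high, and the call is given no weight. With Mkl1 it read -2.68 and -2.69, a difference of 0.56 that did not pass the test (SE 0.27, adjusted p = 0.187, limma). It rose by 1.17 with shActb_1 and by 1.24 with shActb_2. Jun, an immediate-early gene, rose in all 4 comparisons, by 0.63, 1.02, 0.81 and 1.09 for Srf, Mkl1, shActb_1 and shActb_2. Mb, the myoglobin gene, rose by 1.89 on the arrays labelled Srf and fell by 0.81 with shActb_2. Bdnf, a neuronal growth factor gene, fell by 0.33 with Mkl1, 0.39 with shActb_1 and 0.71 with shActb_2, and rose by 0.26 on the arrays labelled Srf (adjusted p = 0.0470, limma).

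**Figure D4:**
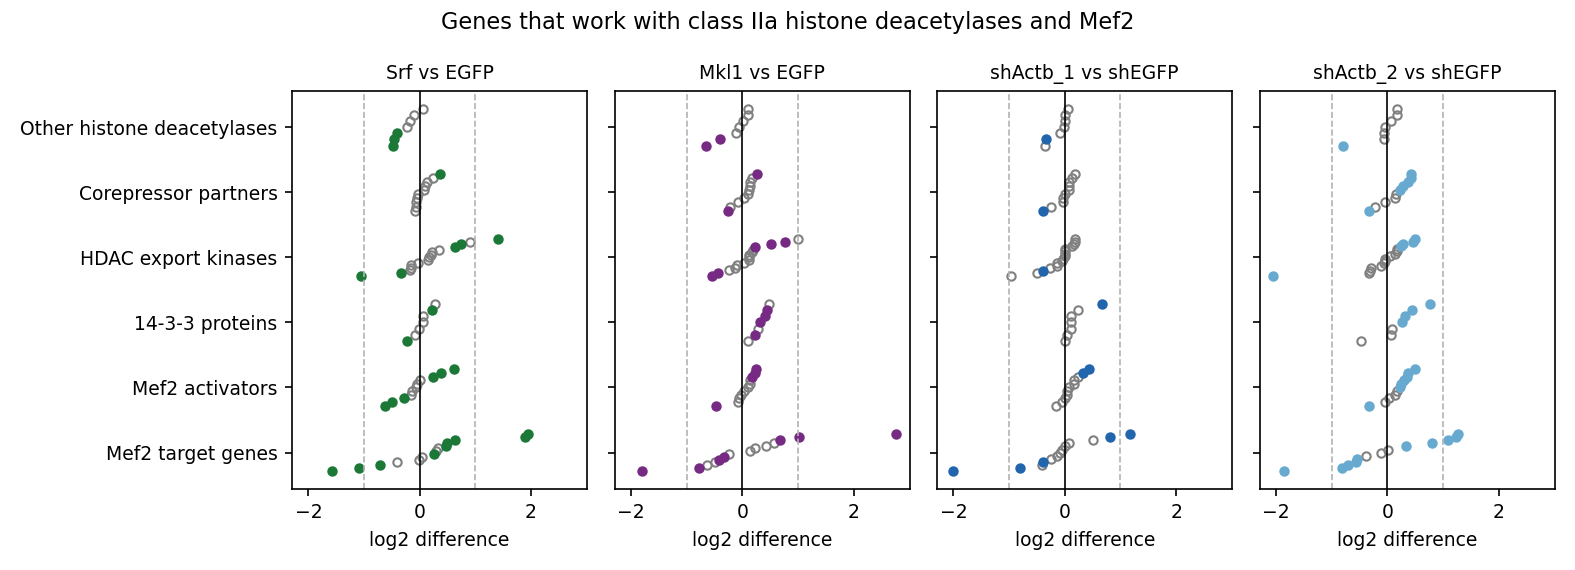
Log2 difference from the control (horizontal axes) of each tested gene of 6 lists (rows), with 1 panel per comparison, 1 point per gene in order of its value, filled where the adjusted p was under 0.05, and dashed lines at 2-fold. Only the kinases and the Mef2 target genes hold filled points beyond 2-fold (the lowest kinase, Camk4 with shActb_2, is below background there), and the 14-3-3 genes with Mkl1 lie between 0.11 and 0.49.

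Markers of other cells moved beside these genes. Of 7 neuron markers, 3 fell with Mkl1 and none rose, 2 fell and 1 rose with shActb_1, 2 fell and none rose with shActb_2, and 2 fell and 2 rose on the arrays labelled Srf. The shares of all probes that passed were 20.8%, 9.41%, 40.3% and 25.5% in that order. Most of the summed level of the 7 markers came from Snap25, Stmn2 and Map2. This level was 3.67 to 3.77 with EGFP, 2.98 to 3.14 with Mkl1 and 3.33 to 3.43 on the arrays labelled Srf. In the knockdown it was 3.70 to 3.90 with shEGFP, 3.24 to 3.33 with shActb_1 and 3.17 to 3.29 with shActb_2. Stmn2, a neuronal microtubule regulator, fell by 1.46 with Mkl1, 1.41 with shActb_1, 1.29 with shActb_2 and 3.88 on the arrays labelled Srf. Map2, a dendritic microtubule protein gene, fell by 1.49, 1.27, 1.14 and 0.87 in the same order, and Syt1, a synaptic vesicle gene, fell by 1.02 with Mkl1. In the other direction, Tubb3, the neuronal tubulin gene, rose by 1.53 on the arrays labelled Srf (adjusted p = 9.26e-05, limma) and Snap25 by 0.54, and Syt1 rose by 0.77 with shActb_1. The brightest probes of the defining neuronal genes Rbfox3 and Dcx were well above background on 6 and 10 of 12 arrays. Each other Rbfox3 probe was so on 1 array, and no other Dcx probe on any. The brightest Rbfox3 probe read -6.13 to -1.51, its highest value on 1 shActb_2 array, and that of Dcx -7.47 to -3.39. The part of these genes in the decreases of Hdac9 and Mef2c was not tested.

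Of the 10 NPC markers, 8 were tested in the overexpression and 9 in the knockdown experiment. With Mkl1, 3 of them fell and 1 rose, and the arrays labelled Srf had 2 higher and 1 lower. With shActb_1, 3 fell and none rose, and with shActb_2, 3 rose and 2 fell. The shares of all probes that passed were 20.8% for Mkl1, 25.5% for Srf, 9.41% for shActb_1 and 40.3% for shActb_2. Slc1a3, a glial glutamate transporter gene, fell by 1.37 with Mkl1, 1.30 with shActb_1 and 1.11 with shActb_2. Sox2 fell by 1.05 on the arrays labelled Srf, 0.89 with Mkl1 and 1.01 with shActb_1. Fabp7, a fatty acid binding protein gene of radial glia, fell by 1.27 with shActb_1 and 0.66 with Mkl1 and rose by 0.93 on the arrays labelled Srf. Nes rose by 1.16 with Mkl1 and 0.80 with shActb_2, where Vim and Pax6 rose by 0.52 and 0.57 and Sox1 fell by 0.73. The summed level of the 10 markers, which Vim dominates, was 8.13 to 8.22 with EGFP, 8.33 to 8.39 with Mkl1 and 8.01 to 8.06 on the arrays labelled Srf, and 7.98 to 8.004 with shEGFP against 8.09 to 8.11 and 8.51 to 8.52 with the hairpins.

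Of 5 embryonic stem cell markers, 2 rose on the arrays labelled Srf, namely Esrrb, a nuclear receptor gene, by 2.53 (SE 0.12, adjusted p = 1.62e-05, limma) and Dppa5a by 0.46, where 25.5% of all probes passed. With Mkl1, 1 fell (20.8% of all probes), and with each hairpin 1 rose and 1 fell (9.41% and 40.3%). Their summed level was 0.01 to 0.22 with EGFP, 1.57 to 1.78 on the arrays labelled Srf and -0.28 to -0.22 with Mkl1. In the knockdown it was -0.06 to 0.08 with shEGFP, -0.16 to 0.02 with shActb_1 and 0.03 to 0.09 with shActb_2. The higher sum on the arrays labelled Srf came mostly from Esrrb, whose mean was -1.22 with EGFP and 1.31 there. The brightest probes of Nanog, Pou5f1 and Zfp42 differed there by 0.12, -0.34 and -0.13 without passing. Esrrb also rose by 0.78 and 0.90 with the hairpins, and the brightest probe of the pluripotency gene Nanog fell by 0.90 with Mkl1, 0.78 with shActb_1 and 0.64 with shActb_2. Of 2 other Nanog probes, also well above background on all 12 arrays, 1 fell in the same 3 comparisons, by 0.62, 0.75 and 0.75. The other fell by 1.12 with shActb_2 and differed by -0.075 with Mkl1 and -0.22 with shActb_1 without passing (adjusted p = 0.820 and 0.643, limma). Their part in the values of the 7 genes was not tested.

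Of 8 skeletal and cardiac muscle markers, 3 were above background on no array, among them Myog. The cardiac actin gene Actc1 was above background on neither control and on all 8 perturbed arrays, at least 8.35-fold higher with Mkl1, 2.63-fold higher on the arrays labelled Srf, 1.37-fold higher with shActb_1 and 8.97-fold higher with shActb_2. It entered the tests through the perturbed arrays alone, where it is high, so its calls are given no weight. Of the 3 muscle markers tested with Mkl1, Actc1 was higher and 1 fell, and of the 4 tested with shActb_2, Actc1 was higher and 2 fell (20.8% and 40.3% of all probes passed). Besides Actc1, Mb alone of the 3 tested was higher on the arrays labelled Srf (25.5% of all probes), and with shActb_1 no other of the 4 passed (9.41%). The brightest probe of Myh6, a cardiac myosin gene well above background on all 12 arrays, fell by 0.63 with Mkl1 (adjusted p = 0.0172, limma) and by 0.58 with shActb_2 (adjusted p = 0.0125, limma), and its other probe passed in neither. Among 5 endothelial markers, Cdh5, Tie1 and Tek were above background on no array, whereas Kdr and Pecam1 were so on all 12. Kdr, a receptor gene of vascular growth factor, read 2.33 to 3.17 over the arrays and fell by 0.54 with shActb_2 (adjusted p = 0.00555, limma). Pecam1 passed no test against a control.

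The genes whose levels were most like Hdac9 over the 12 arrays were Meis2 (r = 0.97), Gprasp2 (0.97), Isl1 (0.96), Tmtc2 (0.96) and Slit2 (0.96), out of 16712 genes. The arrays share slides and controls, so r is a description. Meis2, a homeobox gene, differed by -1.66 with Mkl1, -1.19 with shActb_1, -0.62 with shActb_2 and -0.55 on the arrays labelled Srf. Isl1, a LIM homeobox gene of motor and sensory neurons, differed by -1.25, -1.02, -0.58 and -0.34 in the same order, and Slit2, an axon guidance ligand, by -1.19, -1.02, -0.67 and -0.13. With neither hairpin did any of these 5 genes fall as far as Hdac9. The same order with Mkl1 and Srf is not read, since Hdac9 was chosen for its decrease against the EGFP arrays.

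Beside Hdac9 on the chromosome lie Twist1, a mesodermal transcription factor gene, and Prps1l1, with the predicted genes Gm40383 and Gm33864, which have no named probe. Twist1 fell by 0.47 on the arrays labelled Srf (adjusted p = 0.00139, limma) and by 0.38 with shActb_2 (adjusted p = 0.00268, limma). Its differences of -0.14 with Mkl1 and -0.20 with shActb_1 did not pass, in the comparisons where Hdac9 was lowest. Prps1l1 was not tested, since no group had it well above background on both arrays.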

How the data were processed

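RNA of 12 NPC samples was hybridized to 1-colour Agilent mouse arrays. Per the file headers the authors deposited intensity values, the background-subtracted processed signal of Feature Extraction 11.5.1.1, not normalized between arrays, and a table of log2 values that equal the log2 scanner signal minus 1 constant per array. The feature count fits the array format of the methods, which differs from that of the labels. Control spots and outlier flags were left out, spots of a probe averaged, log2 taken and each array's 75th percentile subtracted. Probes were named through the accessions of a RefSeq table of GRCm38.p6, another build than the array's, and 28026 of 55681 (50.3%) got a symbol.

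Groups came from the titles. All 12 arrays were fitted with limma 3.58.1 in R 4.3.3, 1 mean per group, over all probes that both arrays of either compared group showed well above background. A probe passed at a two-sided Benjamini-Hochberg adjusted p under 0.05. Changed probes also exceeded 2-fold. A gene was counted through its brightest probe. The study's methods name no test for the arrays. The number of arrays limits the precision, and no probe was saturated.

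The genes and lists were chosen with earlier results of these data known. Named are all 7 genes, the targeted genes, up to 3 changed genes of each list in a comparison, the neighbours of Hdac9 and the 5 genes most like it, besides those said to be named after their values were seen. The values of 1 corepressor gene are not reported here. Alternatives were quantile normalization, normexp (offset 50, on the median signal, as the mean was not among the columns), the deposited table, 2 other filters, the arrays of 1 experiment, the replicate number as a block, a variance trend with robust estimation, other thresholds, averaged probes and each array left out.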

Additional observations from a re-analysis of the deposited data

Results flagged for a closer look

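A total of 4 differences between the hairpins, each against the same shEGFP arrays, passed the test of the difference itself. The log2 difference of shActb_2 minus shActb_1 was 0.60 for Hdac9, 0.46 for Mef2c, and -0.99 and -0.56 for the brightest and the dimmest probe of Mef2a. The shActb_2 arrays lie alone on 1 slide, so slide and hairpin cannot be told apart in these values. Among all probes tested, 32.1% passed in this comparison.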

How the results depend on the processing

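Over 22 alternatives, 594 tested values of the 7 genes were recomputed, of which 532 kept direction and side of the threshold, 49 lost the call, 7 gained one and 6 changed sign. Counts were also taken by 2-fold alone. The count of genes past the test on the arrays labelled Srf, 3, became 0 without a filter on dim probes, with the overexpression arrays alone, by 2-fold alone and at an adjusted p under 0.01, and ranged from 0 to 3 with 1 array left out. With shActb_1 the count of 3 became 1 by 2-fold alone (2 to 3 with 1 array left out). With shActb_2 it became 5 by quantile normalization, 1 by 2-fold alone and 1 with probes averaged, and between the hairpins 0 by 2-fold alone (2 to 3 with 1 array left out). Signs turned for Hdac4 with shActb_1 without shActb_1 replicate 2 (-0.030, range -0.030 to 0.18 over left-out arrays) and between the hairpins without shActb_1 replicate 1 (-0.028, range -0.028 to 0.18), for Hdac9 with shActb_2 with probes averaged (0.29), and between the hairpins for Hdac7 under normexp (0.063) and without shActb_2 replicate 1 (0.0076, range -0.065 to 0.0076) and for Mef2d under normexp (0.0090). Of these, the Hdac9 value alone had been past the test.

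Over all probes, the numbers past the test ranged from 4633 to 11846 around 9054 for Srf, 2468 to 11299 around 7439 for Mkl1, 1248 to 5064 around 3411 for shActb_1, 8458 to 17193 around 14590 for shActb_2 and 5336 to 14240 around 11373 between the hairpins. No scaling moved the median of all probes by over 0.1.

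Arrays with the same replicate number did not deviate together in all comparisons (r from 0.0032 to 0.20), so the numbers do not pair them. With the replicate block, the Mef2a values of Srf (-0.27, adjusted p = 0.0415, limma) and shActb_1 (0.33, adjusted p = 0.0451, limma) passed and the Hdac9 difference between the hairpins did not (0.60, adjusted p = 0.0568, limma), and no other call of the 7 genes changed. The slide as a block was not run, since groups lie within slides and comparisons within a slide are unchanged by it. Dim probes such as the second Hdac9 probe are limited by the background, and the cause of the other shifts was not tested.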
